A study of Mus musculus with 12 samples.

Results

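The comparison described here set cells labelled Nnmt-OE against mock-transduced cells, both given transforming growth factor β (TGFβ). It was chosen by the sample titles, which put 3 libraries in each group, 6 of the 12 libraries in the series. All genes in the count table were considered: 12897 genes passed a filter on low counts, out of 55487 identifiers.

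The cells were mouse tubular epithelial cells, which line the tubules of the kidney. The group labelled Nnmt-OE had been transduced with an expression construct for nicotinamide N-methyltransferase (Nnmt), and its genotype field spells it Nmt-OE. The mock group had been transduced with a mock construct. Both groups were selected on puromycin and received TGFβ at 10 ng/mL for 48 h. The other 6 libraries, Nnmt-OE and mock without TGFβ, are used only to set values beside these. All cells carry a conditional SV40 large T antigen, were maintained at 33 °C in 10% serum with 10 ng/mL interferon γ, 20 ng/mL epidermal growth factor and 36 ng/mL hydrocortisone, and were then kept at 37 °C without interferon γ for 7 days. The labels give neither the promoter of the construct nor the number of clones, and they leave unstated whether replicates came from separate cultures. The p-values therefore measure only how far these samples vary, which may be technical variation. The library codes of the 2 groups form separate runs of numbers, so handling and construct cannot be told apart.

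Nnmt methylates nicotinamide, taking the methyl group from S-adenosylmethionine, and so draws on the NAD and methionine pathways. TGFβ acts through SMAD transcription factors and is widely used to drive matrix and contractile genes in tubular cells. Immediate-early genes are switched on within minutes of growth factor, stress or serum signals without new protein synthesis, and many encode transcription factors or the phosphatases and adaptors that shut the same signals off.

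Each library held between 4845677 and 5992130 reads in genes with the Nnmt-OE label and TGFβ, and between 5693417 and 7247413 in mock with TGFβ. Levels are in CPM, counts scaled to the size of the library, made from tags at the 3' end of transcripts, so they are not scaled by transcript length. Replicate 3 of each of these 2 groups stood apart from the other 2 replicates of its group on the first 2 principal components. Without these 2 libraries and mock replicate 1, the same 3 genes were called. For the 9303 genes at 10 CPM or more in the higher group, the median 95% interval reached 0.35 to either side of the log2 fold change. For 8735 of them (93.9%) the interval lay within a 2-fold change, and for 6020 (64.7%) within 1.5-fold.

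Markers of the tubule were present in part. Pax8 averaged 253.1 and 234.5 CPM, Pax2 294.8 and 287.0 CPM, and the water channel Aqp1 711.7 and 643.4 CPM, in labelled Nnmt-OE and mock cells with TGFβ. The epithelial adhesion genes Epcam and Cdh1 and the nuclear receptor gene Hnf4a had 0 counts in all 12 libraries. The summed level of the 21 tubule markers was 1542 to 1698 CPM in labelled Nnmt-OE and 1501 to 1537 CPM in mock libraries with TGFβ. The defining endothelial markers Pecam1, Cdh5 and Kdr and the T and B cell markers Cd3e and Cd79a had 0 counts in all 12 libraries. Of the 6 leukocyte markers, Csf1r averaged 73.3 and 76.7 CPM and Cd68 7.65 and 6.87 CPM in labelled Nnmt-OE and mock cells with TGFβ, and the list summed to 73.2 to 87.8 CPM in labelled Nnmt-OE and 76.6 to 96.3 CPM in mock libraries. Of the 5 podocyte markers, Synpo averaged 146.8 and 139.1 CPM and Podxl 77.4 and 77.3 CPM, and the list summed to 212.0 to 240.0 CPM in labelled Nnmt-OE and 204.8 to 239.4 CPM in mock libraries with TGFβ. For both lists the ranges overlapped. Fibroblast markers summed to 10.7 to 16.1 CPM in labelled Nnmt-OE and 7.95 to 13.7 CPM in mock libraries with TGFβ. As in any bulk sample, fewer cells of a type and less RNA per cell cannot be told apart.

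The targeted gene was examined first. Nnmt (ENSMUSG00000032271) had 33.9, 22.5 and 26.3 CPM in labelled Nnmt-OE cells with TGFβ, against 33.3, 29.6 and 27.9 CPM in mock cells with TGFβ. The groups overlapped, with 27.6 ± 5.80 and 30.3 ± 2.77 CPM (SD, n = 3 each). The fold change was 0.909, with a 95% interval of 0.677 to 1.22 (edgeR adjusted p = 0.998). Without TGFβ the means were 25.3 ± 2.88 CPM in labelled Nnmt-OE and 20.3 ± 3.84 CPM in mock cells. A 3' tag counts only transcripts that end where the annotated gene ends, and the 3' end of the construct is not described, so this count may not register the construct at all. The directions given below rest on the label Nnmt-OE.

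Across all genes, 3 differed between labelled Nnmt-OE and mock cells under TGFβ, all 3 higher and 0 lower. That is 0.0233% of the genes tested (edgeR quasi-likelihood test, Benjamini-Hochberg adjusted p under 0.05). They were Egr1, Ier3 and Dusp1, which are all immediate-early genes. DESeq2 and limma-voom also called 3 genes each. At an unadjusted p under 0.05 there were 575 genes, 4.46% of those tested. The median log2 fold change was -0.003, the interquartile range ran from -0.15 to 0.15, and 49.5% were positive. Medians by chromosome lay between -0.033 and 0.021 for genes at 10 CPM or more.

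**Figure D1:**
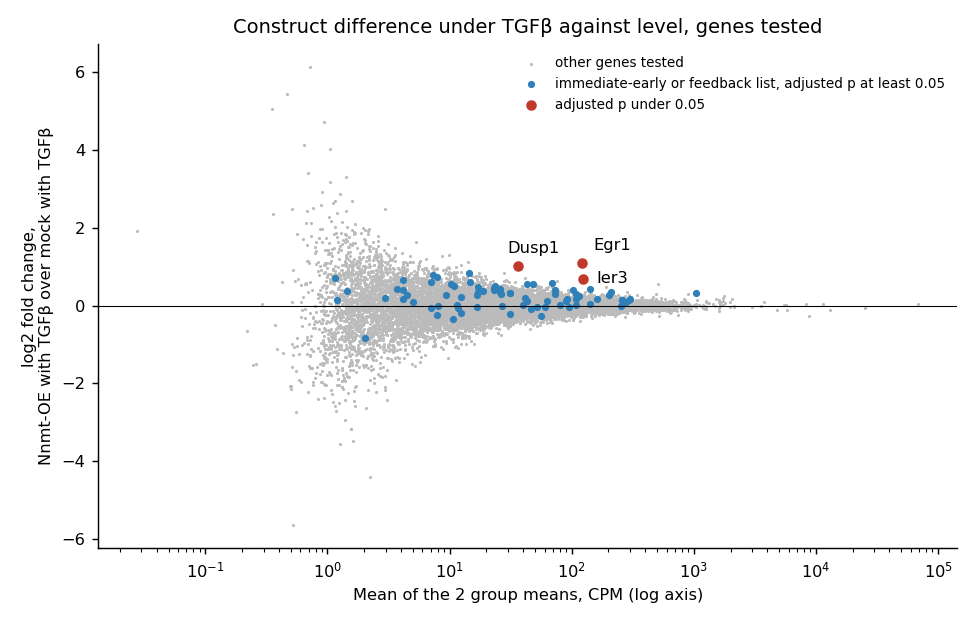
Each point is 1 of 12897 genes, with its mean level in CPM on a log axis across and its log2 fold change, labelled Nnmt-OE over mock under TGFβ, up. Red points are the 3 genes with an adjusted p under 0.05, all above 0, and blue points are the other tested members of the immediate-early and feedback lists.

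The promoters of Ier3 and Dusp1 are shown because both genes rose and share the immediate-early class. They are the 250 bases before the start of transcription in RefSeq on GRCm38.p6. The set of promoters used here held entries for 2 of the 3 called genes. Capitals mark the letters TGACGTCA (a cyclic AMP response element) and the shorter TGACG, which is part of it, searched on both strands.
Dusp1: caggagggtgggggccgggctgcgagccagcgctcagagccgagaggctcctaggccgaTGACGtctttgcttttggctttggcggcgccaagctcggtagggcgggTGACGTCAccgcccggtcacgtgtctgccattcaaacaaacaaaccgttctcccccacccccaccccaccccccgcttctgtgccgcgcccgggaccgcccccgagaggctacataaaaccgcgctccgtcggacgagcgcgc
Ier3: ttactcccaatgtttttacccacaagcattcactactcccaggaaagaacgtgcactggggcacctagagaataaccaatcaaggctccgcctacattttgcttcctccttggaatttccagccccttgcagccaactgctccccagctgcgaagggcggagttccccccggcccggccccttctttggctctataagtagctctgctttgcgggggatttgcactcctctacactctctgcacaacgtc
The Dusp1 sequence is chr17:26508473-26508722 on the minus strand, and the Ier3 sequence is chr17:35821463-35821712 on the plus strand. In the Dusp1 window the full element begins 143 bases before the start, and 1.55% of 32851 promoter windows of this length hold it. The shorter TGACG has 3 copies there, 1 at 191 bases before the start and 2 inside the full element, and 17.8% of windows hold it. The Ier3 window holds neither. Neither window holds the AP-1 letters TGANTCA (6.75% of windows), the EGR letters GCGNGGGCG (4.7%), the ETS letters CCGGAA (12%) or the CArG box bound by serum response factor (1.47%).

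Egr1 (ENSMUSG00000038418), a zinc-finger transcription factor induced through ERK and serum response factor, had 149.1, 163.2 and 188.3 CPM in labelled Nnmt-OE cells with TGFβ, against 76.8, 75.6 and 80.6 CPM in mock cells with TGFβ. The groups did not overlap, and the lowest labelled Nnmt-OE library stood well above the highest mock library. Egr1 rose 2.15-fold, with a 95% interval of 1.85 to 2.50 (log2 1.10 ± 0.11 SE, edgeR adjusted p = 1.43e-08). It was called whichever of the 6 libraries was left out.

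Ier3 (ENSMUSG00000003541), an early response gene linked to survival signalling, had 158.8, 149.4 and 151.6 CPM in labelled Nnmt-OE cells with TGFβ, against 101.9, 88.1 and 98.3 CPM in mock cells with TGFβ. All 3 labelled Nnmt-OE libraries were higher than all 3 mock libraries. Ier3 rose 1.60-fold, with a 95% interval of 1.35 to 1.89 (log2 0.67 ± 0.12 SE, edgeR adjusted p = 0.0119). The call was lost when any library other than mock with TGFβ replicate 1 was left out, with an adjusted p up to 0.447 and a log2 fold change of 0.61 to 0.72.

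Dusp1 (ENSMUSG00000024190), a phosphatase that inactivates MAP kinases, had 56.7, 49.0 and 40.9 CPM in labelled Nnmt-OE cells with TGFβ, against 29.1, 22.8 and 19.8 CPM in mock cells with TGFβ. The groups did not overlap. Dusp1 rose 2.04-fold, with a 95% interval of 1.55 to 2.69 (log2 1.03 ± 0.20 SE, edgeR adjusted p = 0.0261). The call was lost without mock with TGFβ replicate 2 or 3 or labelled Nnmt-OE with TGFβ replicate 1 or 2, with an adjusted p up to 0.726 and a log2 fold change of 0.91 to 1.20. In the GENCODE M21 annotation Dusp1 overlaps 2 genes on its own strand and 2 on the other, so its reads are less certain than those of Egr1 and Ier3, which overlap none.

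**Figure D2:**
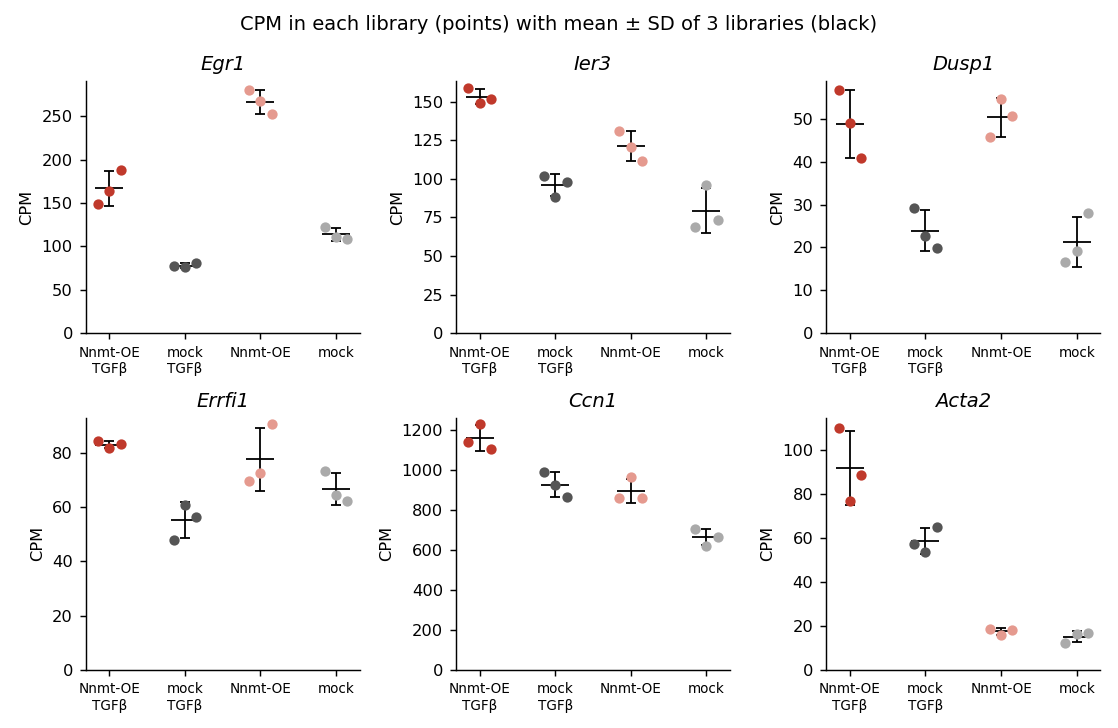
Points are CPM in single libraries, with black bars for the mean ± SD of 3 libraries, for labelled Nnmt-OE with TGFβ, mock with TGFβ, labelled Nnmt-OE and mock. Egr1, Ier3 and Dusp1 do not overlap between labelled Nnmt-OE and mock under TGFβ, and Errfi1, Ccn1 and Acta2 do not overlap either but did not pass the adjusted threshold.

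Among the immediate-early transcription factor genes, Egr1 alone rose by the adjusted test. The early and feedback lists were drawn up with the calls of Egr1, Ier3 and Dusp1 known, so they are no independent evidence of direction. Of the 28 listed, 24 were tested, 20 had a positive log2 fold change, and the median was 0.38, against -0.003 over all genes. The 3 and 3 libraries did not overlap, with labelled Nnmt-OE higher, for 10 of the 24, against 5.27% of all genes tested, and for 0 with mock higher, against 4.95%. Without the libraries that stand apart, 19 of the 24 were positive and the median was 0.34. The summed level of the list was 1611 to 1824 CPM in labelled Nnmt-OE and 1349 to 1419 CPM in mock libraries with TGFβ. With Egr1 taken out, the sum was 1462 to 1636 CPM in labelled Nnmt-OE and 1272 to 1343 CPM in mock libraries.

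Jun, a subunit of the AP-1 factor, had 144.0, 144.7 and 197.5 CPM in labelled Nnmt-OE cells with TGFβ, against 127.2, 123.0 and 109.6 CPM in mock cells with TGFβ (log2 0.43 ± 0.11 SE, edgeR adjusted p = 0.635). Junb, another AP-1 subunit, had 105.1, 117.2 and 128.2 CPM in labelled Nnmt-OE cells, against 91.5, 84.0 and 87.7 CPM in mock cells (log2 0.41 ± 0.12 SE, edgeR adjusted p = 0.892). Bhlhe40, a repressor tied to the circadian clock, had 60.2, 59.5 and 51.3 CPM in labelled Nnmt-OE cells, against 41.5, 43.7 and 30.6 CPM in mock cells (log2 0.56 ± 0.17 SE). None of these 3 overlapped between the groups. The other 6 without overlap, chosen after their values were seen, were Klf6, Nfil3, Arc, Klf10, Nr4a1 and Atf3, with log2 fold changes from 0.29 for Klf6 to 0.60 for Nr4a1. Fos itself, also named after its values were seen, was low, with 4.13, 7.10 and 2.92 CPM in labelled Nnmt-OE cells, against 3.64, 2.34 and 4.95 CPM in mock cells.

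Other early and fast-response genes gave a similar count. Of the 35 listed, 34 were tested, 29 had a positive log2 fold change, the median was 0.19, and Ier3 rose. The libraries did not overlap for 12, all higher in labelled Nnmt-OE, against 5.27% of all genes tested higher and 4.95% lower, and without the libraries that stand apart 31 were positive with a median of 0.25. Cxcl1, a neutrophil-attracting chemokine, had 48.1, 60.9 and 44.8 CPM in labelled Nnmt-OE cells with TGFβ, against 30.8, 39.6 and 34.1 CPM in mock cells with TGFβ (log2 0.56 ± 0.17 SE). Ccn1, a matricellular protein, had 1140, 1230 and 1103 CPM in labelled Nnmt-OE cells, against 989.7, 924.8 and 863.4 CPM in mock cells (log2 0.32 ± 0.08 SE, edgeR adjusted p = 0.446). Gadd45g, a stress-response gene, had 214.0, 242.1 and 254.0 CPM in labelled Nnmt-OE cells, against 175.8, 200.6 and 184.0 CPM in mock cells (log2 0.34 ± 0.11 SE). The groups did not overlap for Cxcl1, Ccn1 or Gadd45g. Ier2 had a log2 fold change of 0.83 ± 0.29 (SE) and Zfp36, which speeds the decay of cytokine transcripts, 0.80 ± 0.38, both named after their values were seen. Neither passed the adjusted threshold.

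Feedback inhibitors of ERK and MAP kinase signalling were more mixed. Of the 22 listed, 21 were tested, 14 were positive, the median was 0.18, and Dusp1 rose. The libraries did not overlap for 4 with labelled Nnmt-OE higher and for 2 with mock higher, against 5.27% and 4.95% of all genes tested. Errfi1, an inhibitor of the epidermal growth factor receptor, had 84.3, 81.7 and 83.4 CPM in labelled Nnmt-OE cells with TGFβ, against 47.9, 61.0 and 56.6 CPM in mock cells with TGFβ. Its groups did not overlap, and its fold change was 1.51, with a 95% interval of 1.24 to 1.83 (edgeR adjusted p = 0.376). Dusp6, a phosphatase specific for ERK, had 132.6, 127.6 and 114.5 CPM in labelled Nnmt-OE cells, against 103.1, 119.6 and 93.7 CPM in mock cells, and here the groups overlapped (log2 0.24 ± 0.11 SE). The pair without overlap and lower in labelled Nnmt-OE, Dusp4 and Dusp9, chosen after their values were seen, had log2 fold changes of -0.84 ± 0.75 and -0.23 ± 0.48 (SE).

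Over the 3 lists together, 79 of 85 different genes were tested. Of these, 63 were positive, and the libraries did not overlap for 26 (32.9%) with labelled Nnmt-OE higher and for 2 with mock higher, against 5.27% and 4.95% of all genes tested. At an unadjusted p under 0.05, 17 were higher and 0 lower, against 4.46% of all genes tested in either direction. These counts include Egr1, Ier3 and Dusp1, whose calls were known when the lists were drawn up. Without these 3 genes, labelled Nnmt-OE was higher without overlap for 9 of 23 transcription factor genes, and 19 were positive. For other early genes it was 11 of 33, Ccn1 and Trib1 among them, both called without TGFβ, and 28 were positive. For feedback inhibitors it was 3 of 20, with 13 positive and 2 higher in mock without overlap.

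The same contrast without TGFβ uses 6 other libraries in the same fit, and 5 of 12897 genes were called there (0.0388%). Egr1, Ier3 and Dusp1 were among them, with Ccn1 and Trib1. Egr1, Dusp1 and Trib1 were called whichever of these 6 libraries was left out. Ier3 then kept its call only without mock replicate 2, and Ccn1 only without mock replicate 1 or labelled Nnmt-OE replicate 3. With the compared groups alone, neither Ier3 nor Ccn1 was called. Ier3 was also lost with the replicate block and without the 3 libraries that stand apart. Egr1 had 279.8, 267.6 and 252.4 CPM in labelled Nnmt-OE and 122.0, 110.3 and 108.7 CPM in mock cells without TGFβ, so both groups were lower with TGFβ. The log2 effect of TGFβ on Egr1 was -0.68 in labelled Nnmt-OE (edgeR adjusted p = 5.1e-05) and -0.55 in mock cells (edgeR adjusted p = 0.00223). Log2 fold changes for the construct were 1.10 with and 1.23 without TGFβ for Egr1, 0.67 and 0.61 for Ier3, and 1.03 and 1.24 for Dusp1.

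The difference between these 2 contrasts was tested as an interaction, which edgeR called for 0 of 12897 genes. At an unadjusted p under 0.05 there were 501 genes (3.88%), and DESeq2 and limma-voom also called 0. For Egr1 the interaction was -0.13 ± 0.15 (log2, SE), for Ier3 0.06 ± 0.17 and for Dusp1 -0.21 ± 0.28. Trib1, a pseudokinase called only without TGFβ, had 76.4, 84.3 and 80.9 CPM in labelled Nnmt-OE cells with TGFβ, against 59.3, 69.8 and 65.8 CPM in mock cells with TGFβ. Its log2 fold change was 0.31 with and 0.80 without TGFβ, and the difference did not pass (interaction -0.49 ± 0.18, edgeR adjusted p = 0.999).

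Over the 79 early and feedback genes without TGFβ, 65 were positive, against 50.2% of all genes tested. These 79 include Egr1, Ier3, Dusp1, Ccn1 and Trib1, all called without TGFβ. The lists were drawn up with earlier results of these data known, so these counts are no independent evidence of direction. Of the 79, 30 did not overlap with labelled Nnmt-OE higher, against 5.64%, and 17 of these were also among the 26 seen with TGFβ. Over all genes tested, 72 did not overlap with labelled Nnmt-OE higher in both, 10.6% of the 680 with TGFβ and 9.89% of the 728 without. Across the 9303 genes at 10 CPM or more, Pearson's r between the log2 fold changes with and without TGFβ was 0.09, and 53.7% had the same sign. Genes are not independent replicates, and all 12 libraries share 1 fit.

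**Figure D3:**
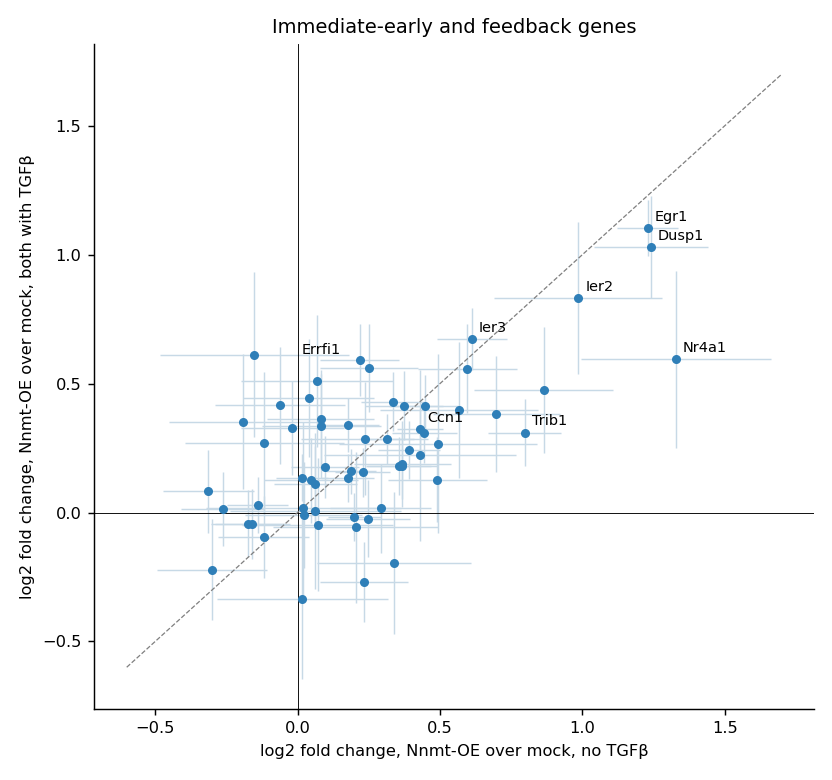
Log2 fold change of labelled Nnmt-OE over mock without TGFβ (across) and with TGFβ (up) for the 61 early and feedback genes with an SE under 0.35 in both, with bars for 1 SE and a dashed line of equality. Of the 61, 41 lie above 0 in both, 4 below 0 in both and 16 have opposite signs.

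Genes that TGFβ drives through SMAD were not called. Of 30 listed, 22 were tested, 15 were positive, the median was 0.16, and the libraries did not overlap for 7, all higher in labelled Nnmt-OE, against 5.27% of all genes tested higher and 4.95% lower. Junb and Bhlhe40 are among the 7 and are also on the immediate-early transcription factor list. Pdgfb, a platelet-derived growth factor chain, had 351.4, 303.9 and 309.2 CPM in labelled Nnmt-OE cells with TGFβ, against 262.3, 253.9 and 276.3 CPM in mock cells with TGFβ (log2 0.28 ± 0.09 SE, edgeR adjusted p = 0.892). All 3 labelled Nnmt-OE libraries were above all 3 mock libraries. Ccn2, a matricellular growth factor target, had 618.6, 629.3 and 556.9 CPM in labelled Nnmt-OE cells, against 482.8, 452.0 and 288.1 CPM in mock cells. The lowest of these was mock with TGFβ replicate 3, which stood apart, and of the alternatives run Ccn2 passed only with no filter on low counts (log2 0.56, edgeR adjusted p = 0.000508). The 4 Id genes, which encode inhibitors of helix-loop-helix factors, had a median of -0.07. Id4 had 16.2, 21.8 and 25.02 CPM in labelled Nnmt-OE cells, against 25.9, 26.6 and 31.6 CPM in mock cells.

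Contractile and matrix genes followed the same pattern of values without calls. Of 29 mesenchymal and contractile genes, 27 were tested, 19 were positive, the median was 0.10, and 8 did not overlap with labelled Nnmt-OE higher and 1 with mock higher, against 5.27% and 4.95% of all genes tested. Tagln, the actin-binding protein transgelin, had 236.0, 216.5 and 210.2 CPM in labelled Nnmt-OE cells with TGFβ, against 145.0, 168.8 and 162.3 CPM in mock cells with TGFβ. The groups did not overlap (log2 0.48 ± 0.12 SE, edgeR adjusted p = 0.436). Without TGFβ the log2 fold change of Tagln was -0.16, and the interaction was 0.64 ± 0.17 (edgeR adjusted p = 0.999). Acta2, smooth muscle actin, had 109.7, 76.7 and 88.4 CPM in labelled Nnmt-OE cells, against 57.3, 53.7 and 65.0 CPM in mock cells (log2 0.64 ± 0.16 SE, edgeR adjusted p = 0.446).

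Of 44 extracellular matrix genes, 34 were tested and 23 were positive, against 49.5% of all genes tested. The median was 0.09. The libraries did not overlap for 5 with labelled Nnmt-OE higher and for 1 with mock higher, against 5.27% and 4.95% of all genes tested. Thbs1, a secreted activator of latent TGFβ, had 569.4, 543.8 and 526.9 CPM in labelled Nnmt-OE cells with TGFβ, against 457.7, 465.0 and 399.7 CPM in mock cells with TGFβ (log2 0.31 ± 0.09 SE, edgeR adjusted p = 0.669). Spp1, the secreted phosphoprotein osteopontin, ran the other way, with 351.7, 330.6 and 346.5 CPM in labelled Nnmt-OE cells, against 396.9, 414.8 and 385.4 CPM in mock cells (log2 -0.22 ± 0.08 SE). Neither gene overlapped between the groups. Of 29 genes of the YAP and TEAD pathway, a list that holds targets and parts of the pathway itself, 28 were tested, 23 were positive and the median was 0.11. For 5 the libraries did not overlap, all higher in labelled Nnmt-OE, against 5.27% of all genes tested, and Tead1, 1 of the factors, is among them, named after its values were seen. Of these 5, Ccn1 and F3 are also on the list of other early genes, and Ccn2 is also on the SMAD list. F3, tissue factor, had 82.3, 85.3 and 80.9 CPM in labelled Nnmt-OE cells with TGFβ, against 58.4, 62.1 and 66.1 CPM in mock cells with TGFβ (log2 0.41 ± 0.13 SE, edgeR adjusted p = 0.892).

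**Figure D4:**
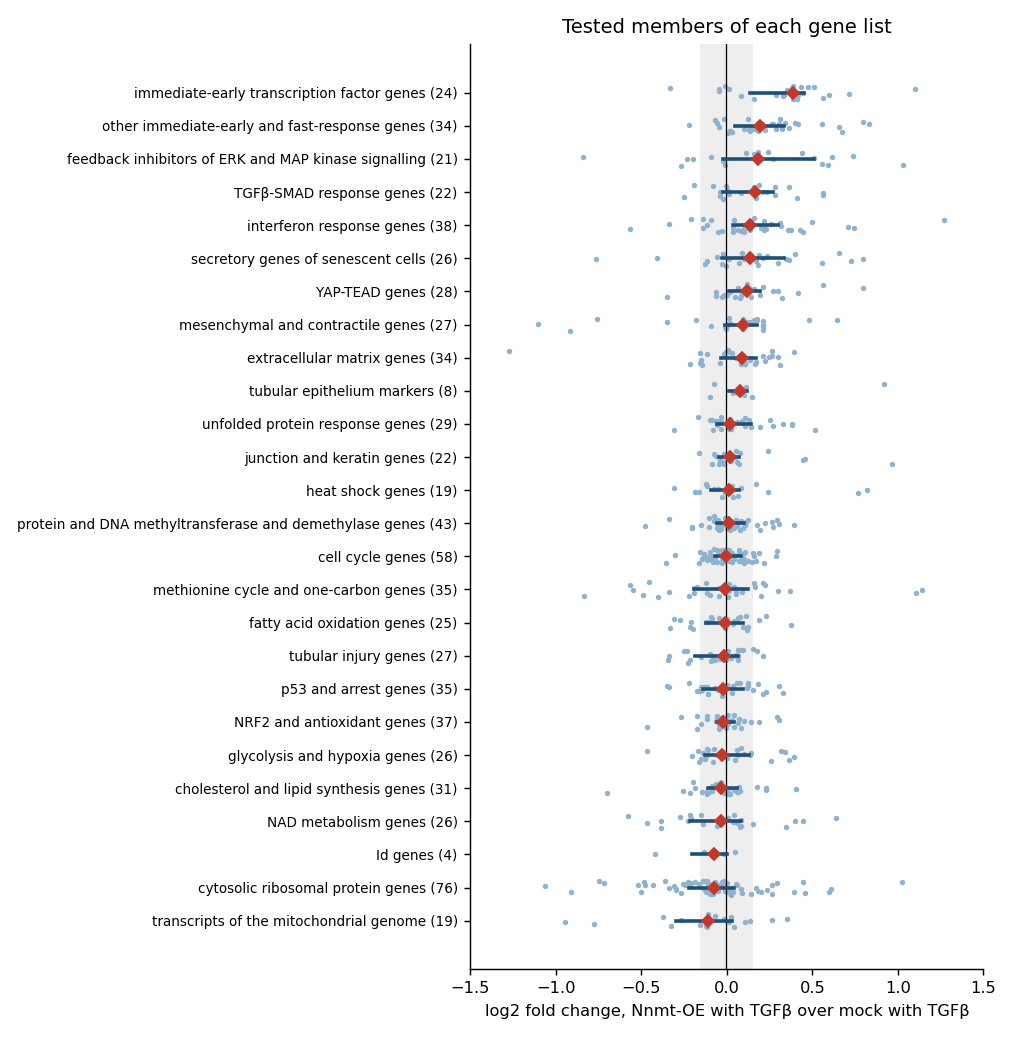
Log2 fold change of labelled Nnmt-OE over mock under TGFβ for the tested members of 26 gene lists, with list sizes in brackets. Red diamonds are medians, dark bars the interquartile range of each list, and the grey band that of all genes (-0.15 to 0.15). The immediate-early transcription factor list has the highest median, 0.38, and 6 points lie beyond the axis at ±1.5.

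The pathways that supply Nnmt showed no called gene. Of 40 NAD metabolism genes, 26 were tested, 12 were positive and the median was -0.03. The libraries did not overlap for 3 with labelled Nnmt-OE higher and for 2 with mock higher, against 5.27% and 4.95% of all genes tested. Pnp (log2 0.64 ± 0.23 SE) and Parp4 (log2 -0.58 ± 0.25 SE) were among them. Of 41 methionine cycle and one-carbon genes, 35 were tested, 16 were positive and the median was -0.01. Here too 3 did not overlap with labelled Nnmt-OE higher and 2 with mock higher. They included Aldh1l2 (log2 1.14 ± 0.49 SE) and Aldh1l1 (log2 -0.57 ± 0.24 SE). Nampt, which recycles nicotinamide into NAD, had 74.5, 92.9 and 93.8 CPM in labelled Nnmt-OE cells with TGFβ, against 94.7, 90.3 and 81.5 CPM in mock cells with TGFβ. Mat2a, which makes S-adenosylmethionine, had 297.5, 250.6 and 300.3 CPM in labelled Nnmt-OE cells, against 245.5, 235.2 and 259.0 CPM in mock cells (log2 0.20 ± 0.10 SE). The groups overlapped for both genes.

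Mthfd1, a folate enzyme, had 58.8, 46.6 and 31.3 CPM in labelled Nnmt-OE cells with TGFβ, against 58.4, 62.6 and 72.1 CPM in mock cells with TGFβ (log2 -0.49 ± 0.21 SE, edgeR adjusted p = 0.998). Other genes of these lists that reached 50 CPM were Nadk, Slc25a51, Bst1, Parp1 and Ppargc1a of NAD metabolism and Mtr, Psat1, Mat2b, Ahcyl1, Mthfd2, Odc1, Tyms, Srm, Shmt2 and Mtap of the methionine and one-carbon list. With Nampt, Mat2a, Mthfd1 and the less abundant Nnmt they made 19 genes. For 17 of the 19 the 95% interval held 0, the exceptions being Mthfd1 and Mat2a. For 18 it lay within a 1.5-fold change, and the bounds of these 19 ran from -0.92 to 0.56. Of 44 protein and DNA methyltransferase and demethylase genes, 43 were tested, with 23 positive and a median of 0.01. Of the 43, 4 did not overlap with labelled Nnmt-OE higher and 3 with mock higher, against 5.27% and 4.95% of all genes tested. Kdm6b, a histone demethylase, had 58.0, 52.3 and 56.3 CPM in labelled Nnmt-OE cells, against 37.97, 41.4 and 47.6 CPM in mock cells (log2 0.39 ± 0.16 SE).

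**Figure D5:**
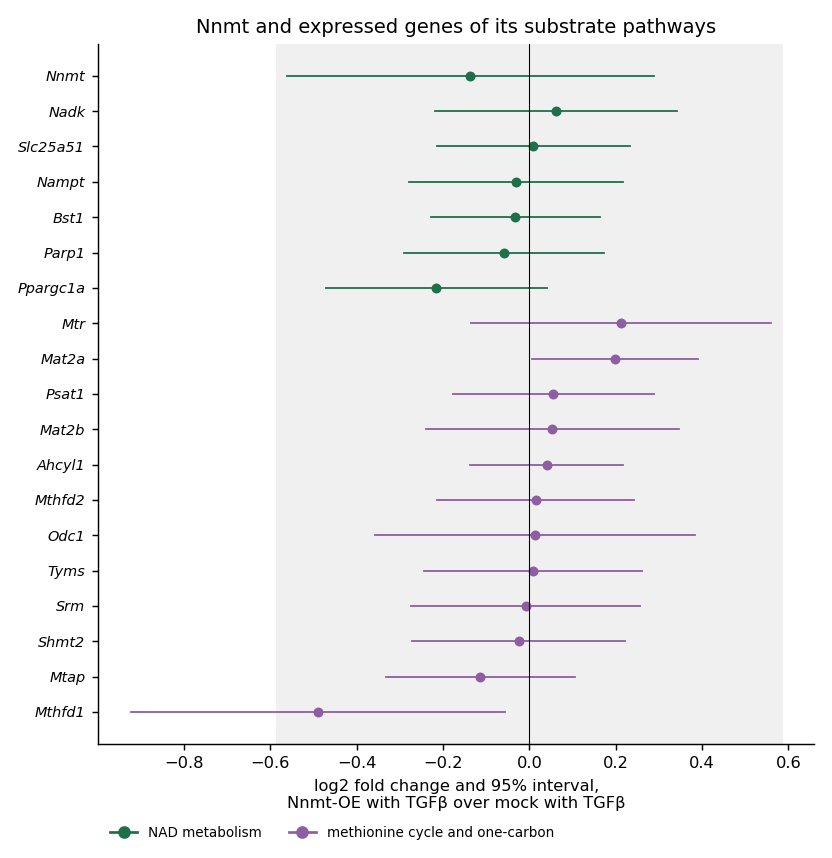
Log2 fold change with its 95% interval, labelled Nnmt-OE over mock under TGFβ, for Nnmt and 18 other expressed genes of NAD metabolism (green) and the methionine cycle and one-carbon list (purple). The grey band spans a 1.5-fold change in either direction. Of the 19 intervals, 17 hold 0.

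Arrest and secretory genes, which mark senescent cells, held no called gene. Of 36 p53 and arrest genes, 35 were tested, 14 were positive and the median was -0.02. Of the 35, 2 did not overlap with labelled Nnmt-OE higher and 1 with mock higher, against 5.27% and 4.95% of all genes tested. Cdkn1a, the p53 target that encodes the p21 inhibitor of the cell cycle, was named after its values were seen and had 1857, 1794 and 1760 CPM in labelled Nnmt-OE cells with TGFβ, against 1650, 1637 and 1705 CPM in mock cells with TGFβ (log2 0.12 ± 0.12 SE). Its groups did not overlap. Cdkn2a had 564.7, 716.3 and 573.8 CPM in labelled Nnmt-OE cells, against 748.0, 732.3 and 575.8 CPM in mock cells (log2 -0.15 ± 0.11 SE). All 58 cell cycle genes were tested, with 28 positive and a median of -0.005. Of the 58, 4 did not overlap with labelled Nnmt-OE higher and 0 with mock higher, against the same shares of all genes. Of 44 secretory genes of senescent cells, 26 were tested, 17 were positive and the median was 0.14. The libraries did not overlap for 3 with labelled Nnmt-OE higher and for 1 with mock higher, against 5.27% and 4.95% of all genes tested. Igfbp2, an insulin-like growth factor binding protein, had 17.5, 19.7 and 13.3 CPM in labelled Nnmt-OE cells, against 5.74, 15.9 and 9.02 CPM in mock cells, and the groups overlapped (log2 0.72 ± 0.30 SE). Lcn2, a secreted iron-siderophore binding protein, was near the limit of detection, with 0.165, 1.38 and 0 CPM in labelled Nnmt-OE cells, against 2.24, 2.62 and 1.41 CPM in mock cells (log2 -1.94 ± 0.87 SE). It is the member that was lower without overlap.

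Interferon response genes also had mostly positive values. Of 41 listed, 38 were tested, 29 were positive, the median was 0.14, and 7 did not overlap with labelled Nnmt-OE higher and 2 with mock higher, against 5.27% and 4.95% of all genes tested. Without TGFβ the median was -0.02. Oasl2 had 15.7, 13.8 and 22.3 CPM in labelled Nnmt-OE cells with TGFβ, against 10.4, 11.5 and 9.72 CPM in mock cells with TGFβ (log2 0.71 ± 0.33 SE). Ifit1 had 28.4, 28.4 and 28.8 CPM in labelled Nnmt-OE cells, against 25.1, 17.5 and 21.0 CPM in mock cells (log2 0.43 ± 0.22 SE). The groups did not overlap for either gene. No member passed the adjusted threshold.

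Most of the remaining lists had medians close to that of all genes. The median was -0.02 for 37 NRF2 and antioxidant genes, of which 13 were positive, against 49.5% of all genes tested. It was 0.02 for 29 unfolded protein response genes (17 positive) and 0.01 for 19 heat shock genes (10 positive). For 25 fatty acid oxidation genes it was -0.01 (12 positive). It was -0.03 for 31 cholesterol and lipid synthesis genes (13 positive) and -0.03 for 26 glycolysis and hypoxia genes (13 positive). It was -0.02 for 27 tubular injury genes (12 positive) and 0.02 for 22 junction and keratin genes (12 positive). None of these genes was called. Scd1, a fatty acid desaturase, had 13.7, 17.7 and 13.8 CPM in labelled Nnmt-OE cells with TGFβ, against 25.8, 25.9 and 21.6 CPM in mock cells with TGFβ (log2 -0.70 ± 0.23 SE, edgeR adjusted p = 0.892). Asns, asparagine synthetase, had 66.8, 68.5 and 70.1 CPM in labelled Nnmt-OE cells, against 86.6, 85.4 and 82.2 CPM in mock cells (log2 -0.31 ± 0.13 SE). Both were lower in every labelled Nnmt-OE library than in any mock library. The medians were -0.08 for 76 ribosomal protein genes and -0.11 for 19 transcripts of the mitochondrial genome, whose summed levels overlapped between the groups. Positive values were found for 26 of the 76 and 7 of the 19, against 49.5% of all genes tested.

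Beyond Egr1 and Dusp1, the largest differences were at low levels. Among genes of at least 10 CPM whose libraries did not overlap, the 10 with the largest positive log2 fold change were Cyp4f16, Tmem230, Dusp1, Egr1, Ldlrad3, Taf7, Rab5a, Mcub, Stard10 and Rps6kc1. Tmem230 had 25.8, 15.9 and 16.7 CPM in labelled Nnmt-OE cells with TGFβ, against 11.9, 9.66 and 5.13 CPM in mock cells with TGFβ (log2 1.12 ± 0.30 SE, edgeR adjusted p = 0.635). Without TGFβ it ran the other way (log2 -0.45 ± 0.30 SE), lower in labelled Nnmt-OE without overlap. Its interaction was 1.57 ± 0.42 (log2, SE, edgeR adjusted p = 0.999). The 10 with the largest negative log2 fold change were Slc6a18, Gdpgp1, Ndufs6b, Rab3a, Znrd1as, Slx1b, Nr1d1, Sh2b2, Zfp599 and Fanci. Slc6a18, an amino acid transporter of the proximal tubule, had 7.27, 6.92 and 2.08 CPM in labelled Nnmt-OE cells, against 18.1, 9.93 and 13.8 CPM in mock cells (log2 -1.34 ± 0.37 SE, edgeR adjusted p = 0.661). Nr1d1, a repressor of the circadian clock, had 6.61, 7.79 and 7.92 CPM in labelled Nnmt-OE cells, against 10.7, 14.3 and 21.0 CPM in mock cells (log2 -1.04 ± 0.32 SE, edgeR adjusted p = 0.892). None of these genes other than Egr1 and Dusp1 passed the adjusted threshold.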

How the data were processed

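The deposited table holds raw read counts per gene, 1 column for each of 12 libraries, made with a 3' tag method from 100 ng of RNA, per the labels' protocols. STAR, HTSeq and the human build GRCh38 are named without versions, per the submitters' processing notes. The identifiers are those of mouse Ensembl genes; which mouse build, annotation and strand setting were used is not stated in the sources used here. Counts are of reads, since no molecular identifiers are mentioned. The 5 HTSeq total rows entered neither library sizes nor tests: 26.4 to 28.8% of reads lay outside genes and 0.603 to 0.679% were ambiguous. GENCODE M21 names matched 55141 of 55487 identifiers (99.4%). Promoter sequences came from RefSeq on GRCm38.p6.

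Samples were grouped by title. All 12 libraries entered 1 fit of 4 group means in edgeR 4.0.16 under R 4.3.3, after filterByExpr (minimum count 10, minimum total 15), with TMM scaling (factors 0.981 to 1.01), and the robust quasi-likelihood F test. P-values were adjusted by Benjamini-Hochberg across the 12897 genes and called under 0.05 (common dispersion 0.0331). CPM are computed from the counts and TMM factors, with the SD over 3 libraries, while the SE of a log2 fold change is that of the model. The test was tested on simulated data. Replicates of a group differed by more than sampling noise, so none was counted as a duplicate.

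The comparison, its 30 gene lists and the tests were chosen with earlier results of these data known. Some genes are on several lists, so the counts of different lists are not separate. Named genes were Nnmt, every gene called with or without TGFβ, the 10 largest positive and negative log2 fold changes of at least 10 CPM without overlap of libraries and with a symbol that is no clone name, up to 4 of the smallest p in each list, and every NAD and methionine list gene of at least 50 CPM. Some genes that this rule covers are not reported here. Those outside it are said to be chosen after their values were seen. Alternatives were RLE scaling, library totals, no filter, a stricter filter (at least 1 CPM in 3 libraries, total at least 50), a replicate block, DESeq2 1.42.0, limma-voom (limma 3.58.1), the compared groups alone, each library left out, and 1 fit leaving out mock replicate 1 and replicate 3 of each TGFβ group, the 3 libraries that stand apart. For the early and feedback lists that last fit was added after seeing the data.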

Additional observations from a re-analysis of the deposited data

How the results depend on the processing

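The count of 3 genes under TGFβ was the same with RLE scaling, library totals, the stricter filter, DESeq2, limma-voom, the compared groups alone and without the 3 libraries that stand apart, and it was 4 with no filter. Leaving out each library gave 1 to 3 calls, and the same range of genes higher. Without TGFβ the count of 5 was 13 with no filter and 3 with the compared groups alone, and 3 to 4 when each library was left out, and the cause was not tested. The interaction had 0 calls under every alternative run. Same-numbered libraries of the 2 TGFβ groups correlated in their deviations at 0.02, 0.03 and 0.08, and differently numbered ones at -0.055 to 0.044. Such small values cannot decide whether the replicate numbers pair the samples. With the replicate block, 3 genes were called with TGFβ, 4 without and 0 in the interaction. Of 79 named genes under 15 alternatives, 66 kept the sign of their log2 fold change throughout, and 13 did not. Without the 3 libraries that stand apart, the log2 fold change was 0.0687 for Bst1, -0.0084 for Mthfd2, 0.0326 for Srm, -0.0522 for Odc1, -0.0174 for Tyms and -0.0101 for Ahcyl1. With each library left out, it ranged from -0.089 to 0.0704 for Nampt, -0.11 to 0.0037 for Parp1, -0.0066 to 0.13 for Nadk, -0.089 to 0.027 for Bst1, -0.043 to 0.079 for Slc25a51, -0.014 to 0.063 for Mthfd2, and -0.065 to 0.063 for Srm. It ranged from -0.12 to 0.098 for Odc1, -0.064 to 0.198 for Psat1, -0.099 to 0.0204 for Shmt2, -0.11 to 0.105 for Tyms, -0.023 to 0.085 for Ahcyl1 and -0.028 to 0.66 for Fos. The median of all genes under TGFβ was -0.002 with RLE scaling and -0.0052 with library totals. Precision was limited: 64.7% of genes at 10 CPM or more had an interval within a 1.5-fold change. Whether depth or the spread between libraries set this was not tested.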
